A study of Homo sapiens with 6 samples.

Results

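The 10 genes described here move calcium across the plasma membrane or the membrane of the endoplasmic reticulum (ER), or sense the ER store. They were the rows of the deposited count table whose symbol was *CACNA1G*, *CACNA1H*, *STIM1*, *STIM2*, *ORAI1*, *ORAI3*, *ITPR2*, *ITPR3*, *ATP2A2* or *ATP2B1*, and all 10 symbols were found once each among its 20381 genes. The set was chosen by gene name, with the PON1-OE against NC fold changes of these same libraries in view. Differences between the groups are therefore given as descriptions, with their errors and without p-values for the 10 genes.

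RNA-seq was performed on HCCLM3, a human hepatocellular carcinoma line, in 3 PON1-OE libraries and 3 NC libraries of poly(A) RNA. PON1-OE cells carried the full-length human *PON1* coding sequence, encoding a calcium-dependent lactonase secreted by the liver, from a lentiviral vector, and NC cells were the negative control, which the series' text gives as an empty vector. Both groups were infected and selected with puromycin according to the paper, while the series' text describes lysis on the day after transfection. Medium with 15% serum is given for all 6 libraries in the series' text. The serum content in the paper's methods is a different figure. No source used here states whether the 3 libraries of a group came from separate infections or cultures, so n counts libraries, and their spread may be technical.

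The estimated counts summed to between 15706672 and 17948383 per library. *PON1* counts were 0, 2 and 3 across the NC libraries and 155, 181 and 167 across the PON1-OE libraries, so no library went against its label. The epithelial keratins *KRT8* (2381 CPM) and *KRT18* (1562 CPM) and the hepatocyte transcription factor *HNF4A* (79.4 CPM) were expressed. Of the other epithelial markers, *CDH1* stood at 13.3 CPM, *KRT19* at 3.96 CPM and *EPCAM* at 0.170 CPM. The hepatocyte products *TF* (20.1 CPM) and *APOB* (5.13 CPM) were expressed. *ALB* (0.517 CPM), *AFP* (0.723 CPM), *APOA1* (at most 5 counts in a library), *TTR* (at most 2) and *SERPINA1* (at most 1) were near 0. Of 5 leukocyte markers 3 had no count in any library, *PTPRC* and *CD3E* among them, while *CD68* stood at 225 CPM, and the 5 summed to between 206 and 227 CPM for NC and between 224 and 248 CPM for PON1-OE. The 4 endothelial markers, led by *PECAM1* (14.1 CPM) and *KDR* (10.1 CPM), summed to between 21.9 and 24.6 CPM for NC and between 25.1 and 27.8 CPM for PON1-OE, without overlap, and the 5 fibroblast markers, led by *LUM* (13.3 CPM), to between 15.98 and 20.9 CPM and between 16.7 and 20.2 CPM. The part of these markers in the results was not tested. CPM are counts normalized to library size after scaling by trimmed means of M values (TMM). Values of a group are listed in the order of its replicates 1, 2 and 3.

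Calcium is kept low in the cytosol and high in the ER. Hormones and growth factors that activate phospholipase C produce inositol trisphosphate, which opens IP3 receptors (*ITPR2*, *ITPR3*) and releases calcium from the ER. STIM proteins in the ER membrane sense the emptied store and open ORAI pores in the plasma membrane, a route called store-operated entry, which is the main calcium entry of non-excitable cells such as hepatocytes. The SERCA pump (*ATP2A2*) refills the store, the plasma membrane pump (*ATP2B1*) removes calcium from the cell, and T-type channels (*CACNA1G*, *CACNA1H*) open at small depolarizations and are best known from neurons and pacemaker tissue.

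*CACNA1G* was lower in PON1-OE, at 0.377-fold the NC level, from few counts. The log2 fold change (log2FC) of the other 9 lay between −0.14 and 0.070, inside the range of −0.34 to 0.34 that held the central 95% of all 11958 genes tested. The median log2FC of the 10 genes was −0.031, and that of all genes tested was −0.0025. Of the 10 genes, 2 were higher and 8 lower in PON1-OE, and of all genes tested 5863 were higher and 6095 lower. In edgeR's quasi-likelihood test with an unadjusted p under 0.05, 2 of the 10 were called, *CACNA1G* lower and *ITPR3* higher, where 11.1% of all genes tested were called, 5.17% lower and 5.91% higher. At an adjusted p under 0.05 the count was 0 of 10 in edgeR and limma-voom, where 0.677% of all genes were called in edgeR. No gene of the 10 was called in DESeq2 either, which gives no adjusted p to genes of low mean count. *CACNA1G*, *ITPR2* and *STIM2* could therefore not be called there. The unadjusted count was also 2 of 10 in DESeq2, which called 5.51% of all its genes, and in limma-voom, which called 10.9%. With a fold over 1.5 required as well, 1 of the 10 was called, *CACNA1G*, beside 0.61% of all genes, and this gene entered the test only through its NC libraries. For 3 of the 10 genes the NC and PON1-OE values stayed apart, *CACNA1G* and *ATP2A2* on the lower side and *ITPR3* on the higher side, against 16.1% of all genes tested without overlap, 7.74% lower and 8.32% higher. As the contrast had been known when the genes were chosen, nothing is read from these counts.

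**Figure D1:**
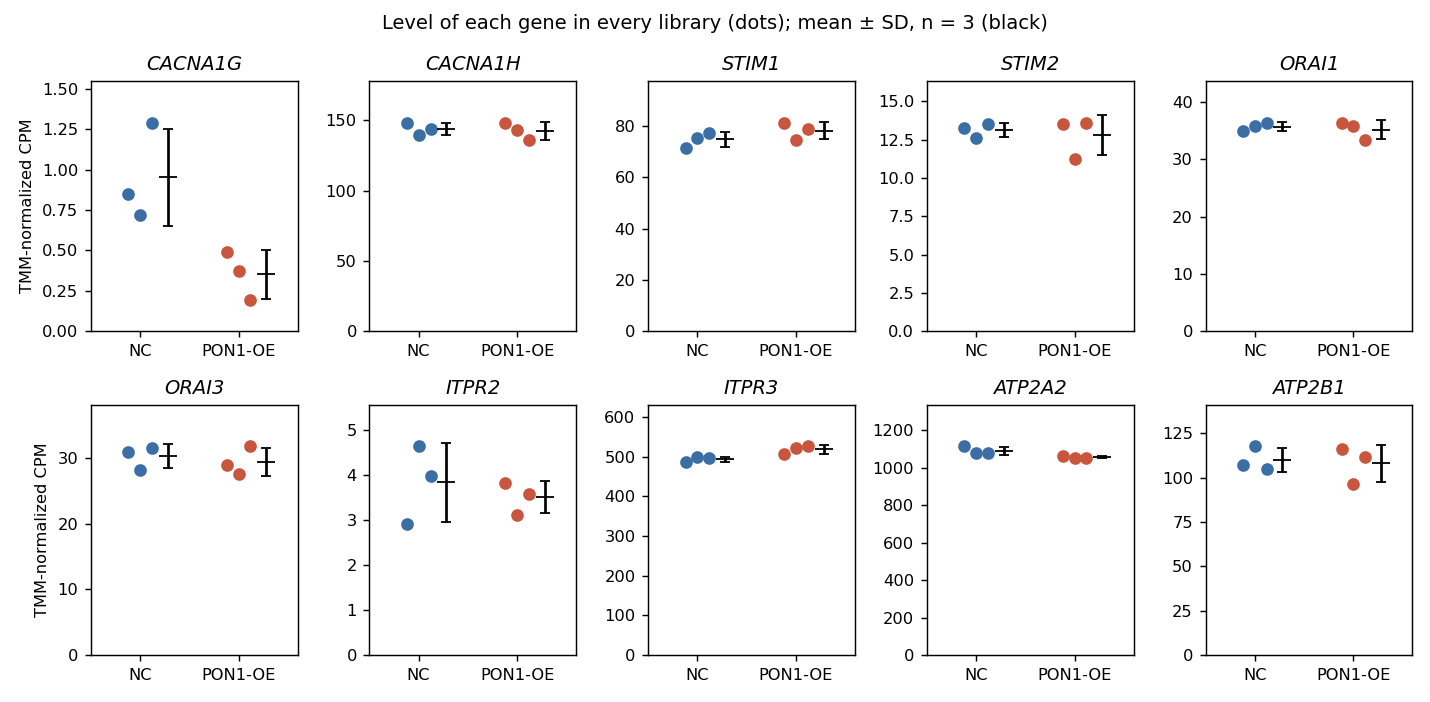
Level of each of the 10 genes in TMM-normalized CPM on axes that start at 0, with 1 dot per library and the mean ± SD (n = 3) in black beside the dots. The 3 PON1-OE libraries sit below the 3 NC libraries for *CACNA1G* and *ATP2A2* and above them for *ITPR3*, and the dots of the groups overlap for the other 7 genes.

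*CACNA1G* (ENSG00000006283) encodes the pore subunit of the T-type channel Cav3.1 and is annotated on chromosome 17 (plus strand, 50561068 to 50627474, GRCh38, GENCODE v29, as for all genes here). NC libraries held 14, 13 and 22 counts of it, and PON1-OE libraries 8, 6 and 3 counts. As levels these were 0.848, 0.719 and 1.29 CPM for NC, then 0.487, 0.375 and 0.192 CPM for PON1-OE. The highest PON1-OE library was below the lowest NC library, and PON1-OE replicate 3 stood at the floor of 3 counts. Mean levels were 0.952 ± 0.300 CPM for NC, then 0.351 ± 0.149 CPM for PON1-OE (SD, n = 3 each). The log2FC was −1.41 (standard error 0.47, 95% interval −2.39 to −0.42). In bulk RNA, fewer cells with a transcript and less transcript per cell cannot be told apart.

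*CACNA1G* was also among the rarest transcripts tested, with rank 11853 of 11958 by mean CPM. Its 3 NC libraries held 49 counts in all and its 3 PON1-OE libraries 17, a ratio of PON1-OE over NC of 0.373 with an exact 95% interval of 0.201 to 0.659 that covers counting error only. The coefficient of variation between libraries was 31.5% in NC and 42.5% in PON1-OE, beside 24.7% and 42.0% that counting alone gives at these depths. The filter on low counts asks for 0.608 CPM in at least 3 libraries, which all 3 NC libraries reached and 0 of the PON1-OE libraries did, so the gene was tested only through the group in which it was higher. Leaving out NC replicate 3, the library with 22 counts, moved the log2FC to −1.12 and removed the unadjusted call. On the opposite strand 3 antisense genes overlap *CACNA1G*, of which 1 shares 309 exonic bases with it, and the counting is not stated to use strand.

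*CACNA1H* (ENSG00000196557, plus strand of chromosome 16 from 1153121 to 1221772), which encodes the related T-type subunit Cav3.2, was far more abundant. Levels were 148, 140 and 143 CPM for NC, then 148, 143 and 136 CPM for PON1-OE. The libraries of the groups overlapped, with a log2FC of −0.014 (standard error 0.045). The 95% interval for the difference ran from 7.17% lower to 5.65% higher in PON1-OE. Per kilobase of exon, *CACNA1H* made up 99.2% ± 0.305 of the T-type level in NC and 99.6% ± 0.0905 in PON1-OE (SD, n = 3 each), where the T-type level is the sum over *CACNA1G*, *CACNA1H* and *CACNA1I*. *CACNA1I*, the T-type subunit Cav3.3, had 3, 8 and 12 counts across NC libraries, then 2, 8 and 6 across PON1-OE libraries, and did not pass the filter. The share of *CACNA1G* was 0.582% ± 0.180 in NC and 0.215% ± 0.0840 in PON1-OE.

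*STIM1* (ENSG00000167323, plus strand of chromosome 11 from 3854527 to 4093210), the main sensor of the emptied store, had levels of 71.5, 75.5 and 77.3 CPM for NC, then 81.3, 74.6 and 78.8 CPM for PON1-OE. PON1-OE replicate 2 lay among the NC libraries, and the log2FC was 0.065 (standard error 0.053). *STIM2* (ENSG00000109689, plus strand of chromosome 4 from 26857678 to 27025381), which responds to smaller losses of store calcium, had levels of 13.3, 12.6 and 13.5 CPM for NC, then 13.5, 11.3 and 13.6 CPM for PON1-OE. PON1-OE replicate 2 was the lowest library and the other PON1-OE libraries were at or just above the NC libraries, giving a log2FC of −0.036 (standard error 0.11). The 95% intervals left room for *STIM1* between 3.12% lower and 13.0% higher and for *STIM2* between 16.2% lower and 13.6% higher in PON1-OE.

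*ORAI1* (ENSG00000276045, plus strand of chromosome 12 from 121626550 to 121642677) encodes the pore that STIM1 opens in most cells. Its levels were 34.9, 35.8 and 36.4 CPM for NC, then 36.3, 35.9 and 33.3 CPM for PON1-OE. The groups overlapped, and the log2FC was −0.022 (standard error 0.067). *ORAI3* (ENSG00000175938, plus strand of chromosome 16 from 30949066 to 30956461), a pore subunit found in mammals, had levels of 31.0, 28.2 and 31.6 CPM for NC, then 28.9, 27.6 and 31.8 CPM for PON1-OE. Its lowest and its highest library were both PON1-OE libraries, with a log2FC of −0.040 (standard error 0.077). The 95% intervals ran from 10.6% lower to 8.55% higher for *ORAI1* and from 12.9% lower to 8.68% higher for *ORAI3*. *ORAI3* shares 1397 exonic bases with a processed transcript of the same strand (AC135048.1), for which the count table analysed here holds no row.

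*ITPR3* (ENSG00000096433, plus strand of chromosome 6 from 33620365 to 33696574) encodes an IP3 receptor that is known from the bile duct epithelium and from liver cancers. Its levels were 486, 499 and 495 CPM for NC, then 506, 522 and 525 CPM for PON1-OE. The lowest PON1-OE library was above the highest NC library, by a small distance, with means of 493 ± 6.63 and 518 ± 10.4 CPM (SD, n = 3 each). The log2FC was 0.070 (standard error 0.034), and the 95% interval ran from 0.0095% to 10.2% higher in PON1-OE. On the opposite strand *UQCC2* shares 1025 exonic bases with *ITPR3*, and none of the 6 values of *ITPR3* was a whole number in the table. *UQCC2* held 1979 counts over the 6 libraries, 3.93% of the 50395 counts of *ITPR3*, and its log2FC was −0.031 (standard error 0.089). The part of such shared reads in the *ITPR3* value was not tested.

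*ITPR2* (ENSG00000123104, minus strand of chromosome 12 from 26336515 to 26833198), which encodes the receptor that is prominent in normal hepatocytes, was scarce in these cells. NC libraries held 48, 84 and 68 counts of it, and PON1-OE libraries 63, 50 and 56, or 2.91, 4.64 and 3.99 CPM against 3.84, 3.13 and 3.58 CPM. The NC libraries held both the lowest and the highest value, and the log2FC was −0.14 (standard error 0.20). The 95% interval reached from 32.1% lower to 22.1% higher, so a moderate difference in *ITPR2* was not detectable with these libraries. Per kilobase of exon *ITPR3* made up 97.7% ± 0.212 of the level of the 3 IP3 receptors in NC and 98.0% ± 0.0352 in PON1-OE, *ITPR1* 1.69% ± 0.0973 and 1.45% ± 0.0935, and *ITPR2* 0.588% ± 0.126 and 0.515% ± 0.0607 (SD, n = 3 each). The merged exons of *ITPR1* span 32.5 kilobases and its longest transcript 10.2, so its share would be larger with the latter length. Shares with the longest transcript were not computed.

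*ATP2A2* (ENSG00000174437, plus strand of chromosome 12 from 110280756 to 110351093) encodes SERCA2, the pump that fills the ER store. Its levels were 1115, 1081 and 1078 CPM for NC, then 1062, 1052 and 1055 CPM for PON1-OE. All 3 PON1-OE libraries were below the NC libraries, by a small distance, with means of 1091 ± 20.5 and 1057 ± 5.11 CPM (SD, n = 3 each). The log2FC was −0.046 (standard error 0.031), and the 95% interval ran from 7.40% lower to 1.27% higher. *ATP2A2* ranked 81 among the 11958 genes tested by mean CPM and made up 99.9% of the level of the 3 SERCA genes in both groups. *ATP2B1* (ENSG00000070961, minus strand of chromosome 12 from 89588049 to 89709300), a plasma membrane calcium pump, had levels of 107, 118 and 105 CPM for NC, then 116, 96.4 and 112 CPM for PON1-OE. Its PON1-OE libraries spread wider than its NC libraries and overlapped them, with a log2FC of −0.026 (standard error 0.060). Per kilobase of exon *ATP2B1* stood beside *ATP2B4*, another pump of this family, with 47.7% ± 0.841 and 52.2% ± 0.843 of the level of the 4 family members in NC, and 45.8% ± 0.978 and 54.2% ± 0.978 in PON1-OE. Merged exons and longest transcript were 9.49 and 7.03 kilobases for *ATP2B1*, and 9.72 and 8.97 for *ATP2B4*. The order of this pair may therefore depend on the length used, and shares with the longest transcript were not computed.

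The promoters of *ITPR3* and *ATP2A2* are shown because these were the most abundant of the 10 genes and their libraries parted in opposite directions. RefSeq sequences on GRCh38.p14 reach from 250 bases before to 50 bases after the start of each gene, and 6 of the 10 genes were matched. *CACNA1G*, *CACNA1H*, *ORAI1* and *ITPR2* were not among them. Both windows below are from the plus strand and read 5′ to 3′, chr6:33621072-33621371 for *ITPR3* and chr12:110280366-110280665 for *ATP2A2*. The *ITPR3* window lies inside the GENCODE v29 gene and the *ATP2A2* window ends before the GENCODE v29 start. Capitals mark GC boxes (GGGCGG on either strand).
ITPR3: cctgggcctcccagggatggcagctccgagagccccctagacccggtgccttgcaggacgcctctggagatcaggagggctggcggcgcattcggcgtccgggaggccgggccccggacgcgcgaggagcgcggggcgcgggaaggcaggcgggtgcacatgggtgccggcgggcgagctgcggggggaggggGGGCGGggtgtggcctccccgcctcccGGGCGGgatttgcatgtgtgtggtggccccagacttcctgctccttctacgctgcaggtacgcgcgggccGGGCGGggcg
ATP2A2: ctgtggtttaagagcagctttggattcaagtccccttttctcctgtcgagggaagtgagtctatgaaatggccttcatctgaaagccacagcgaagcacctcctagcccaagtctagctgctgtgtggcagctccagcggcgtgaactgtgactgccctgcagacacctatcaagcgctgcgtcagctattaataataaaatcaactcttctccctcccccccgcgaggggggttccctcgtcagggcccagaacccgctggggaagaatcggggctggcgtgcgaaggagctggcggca
The *ITPR3* window held 3 GC boxes and had 76.0% G and C, and the *ATP2A2* window held 0 GC boxes and had 57.0% G and C, where the median of all 35116 promoters was 58.7%. A GC box was present in 45.0% of all promoters. Among the other matched genes *STIM1* had 8 GC boxes, *STIM2* and *ATP2B1* had 2 each and *ORAI3* had 0. None of the 6 windows held a TATA box (TATAAA, in 11.5% of all promoters) or a cyclic AMP response element (TGACGTCA, in 1.85%) on either strand. The CCAAT box (CCAAT, in 34.6% of all promoters, either strand) was found once, in the *STIM2* window. These matches describe the letters of the windows and were not related to the counts.

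**Figure D2:**
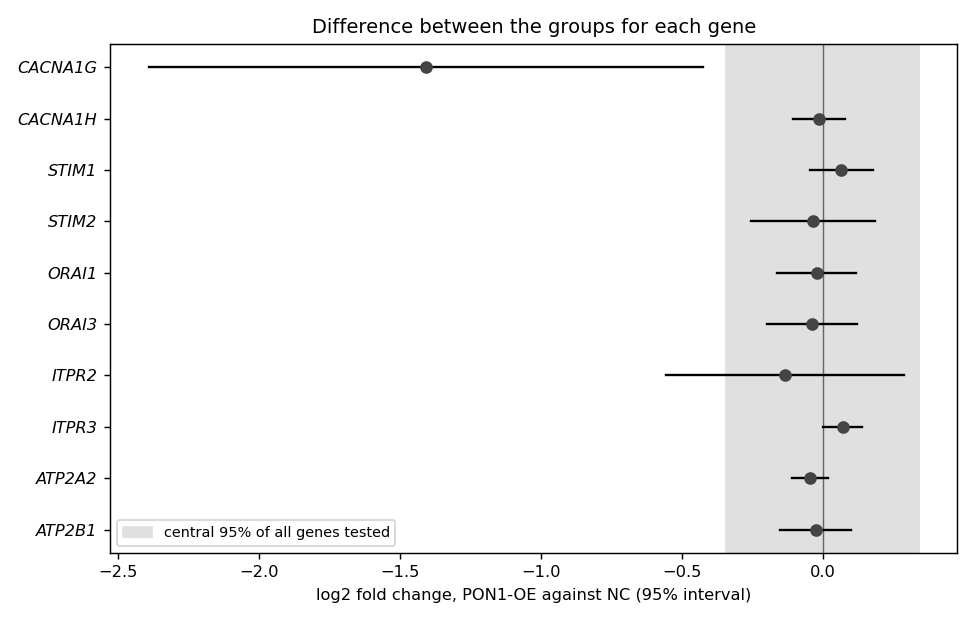
Log2 fold change of PON1-OE against NC for each of the 10 genes (dots) with 95% intervals from edgeR's quasi-likelihood fit (lines), over a grey band that holds the central 95% of all genes tested, from −0.34 to 0.34. *CACNA1G* at −1.41 lies outside the band with the widest interval, and the other 9 dots lie inside it.

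Abundant genes mostly had narrower intervals, with *ATP2B1* (standard error 0.060) wider than the less abundant *STIM1* (0.053). For *ATP2A2*, *ITPR3* and *CACNA1H* the standard error of the log2FC was between 0.031 and 0.045, for *STIM2* it was 0.11, for *ITPR2* 0.20 and for *CACNA1G* 0.47. The median standard error was 0.078 over all genes tested and 0.40 over the 617 genes whose mean CPM lay within 2-fold of that of *CACNA1G*. Spread between libraries was small for *ATP2A2* and *ITPR3*. The coefficient of variation of *ATP2A2* was 1.88% in NC and 0.484% in PON1-OE, beside 0.730% and 0.768% from counting alone. That of *ITPR3* was 1.34% in NC and 2.02% in PON1-OE, beside 1.08% and 1.10%. *ATP2B1* varied more than its counts alone would give, by 6.08% in NC and 9.54% in PON1-OE beside a counting value of 2.30% and 2.40%, and *ITPR2* varied by 22.8% in NC beside 12.2%.

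**Figure D3:**
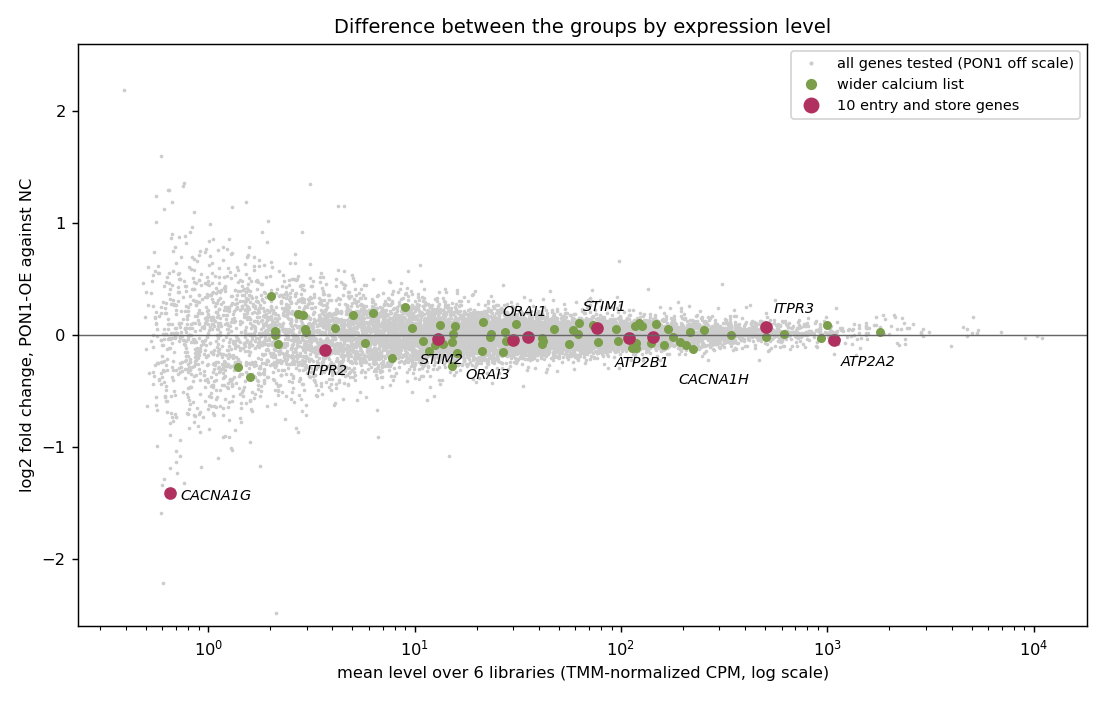
Log2 fold change of PON1-OE against NC (vertical axis) by mean level over the 6 libraries in TMM-normalized CPM (horizontal axis, log scale) for all genes tested (grey), the wider calcium list (green) and the 10 genes (dark red, named), with *PON1* beyond the upper edge. The grey cloud widens toward low levels, where *CACNA1G* lies at 0.652 CPM and −1.41, and 9 of the 10 genes lie near 0.

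Levels of different genes were compared per kilobase of the merged exons in GENCODE v29, over all 6 libraries together. This level was not used to choose the genes. *ATP2A2* was highest at 78.1 ± 1.68 CPM per kilobase (SD, n = 6 libraries), followed by *ITPR3* at 51.2 ± 1.58, *CACNA1H* at 16.6 ± 0.569 and *ORAI1* at 15.7 ± 0.518. *ATP2B1* (11.5 ± 0.827), *ORAI3* (11.3 ± 0.697) and *STIM1* (10.7 ± 0.481) came next. *STIM2* (1.87 ± 0.131), *ITPR2* (0.289 ± 0.0491) and *CACNA1G* (0.0671 ± 0.0403) were lowest.

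Each neighbor in this order was compared with the next within the same library by a two-sided exact permutation test of sign flips over 6 libraries, whose smallest p is 0.03125, with Benjamini-Hochberg adjustment over the 9 pairs. In 7 of the 9 pairs the higher gene was higher in 6 of 6 libraries (adjusted p = 0.0402 in the exact test, each at the smallest p possible). The mean fold in these pairs ranged from 1.06 for *CACNA1H* over *ORAI1* to 6.56 for *STIM2* over *ITPR2*. The pair *ITPR2* over *CACNA1G* includes the group difference of *CACNA1G* that was known beforehand. Its log2 ratio was 2.33 over all libraries and 1.64 in the NC libraries alone, with folds from 2.35 to 14.2 in single libraries. *ATP2B1* and *ORAI3* differed by a mean log2 ratio of 0.024 ± 0.13 (SD, n = 6, exact p = 0.688, adjusted p = 0.688), with *ATP2B1* higher in 2 of 6 libraries. *ORAI3* and *STIM1* differed by 0.073 ± 0.11 (exact p = 0.188, adjusted p = 0.211), with *ORAI3* higher in 4 of 6 libraries. With the longest transcript in place of the merged exons *STIM1* stood above *ORAI3* (log2 ratio of *ORAI3* over *STIM1* −0.38, adjusted exact p = 0.0352), so the order of these middle genes depended on the length used. The log2 ratio of *ATP2A2* over *ITPR3* was 0.61 with the merged exons and 1.88 with the longest transcript. That of *ORAI1* over *ATP2B1*, among the 7 pairs, was 0.099 with the longest transcript (adjusted exact p = 0.0938). The order was taken from these same libraries, and the exact p covers their spread but not the choice of exon length.

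**Figure D4:**
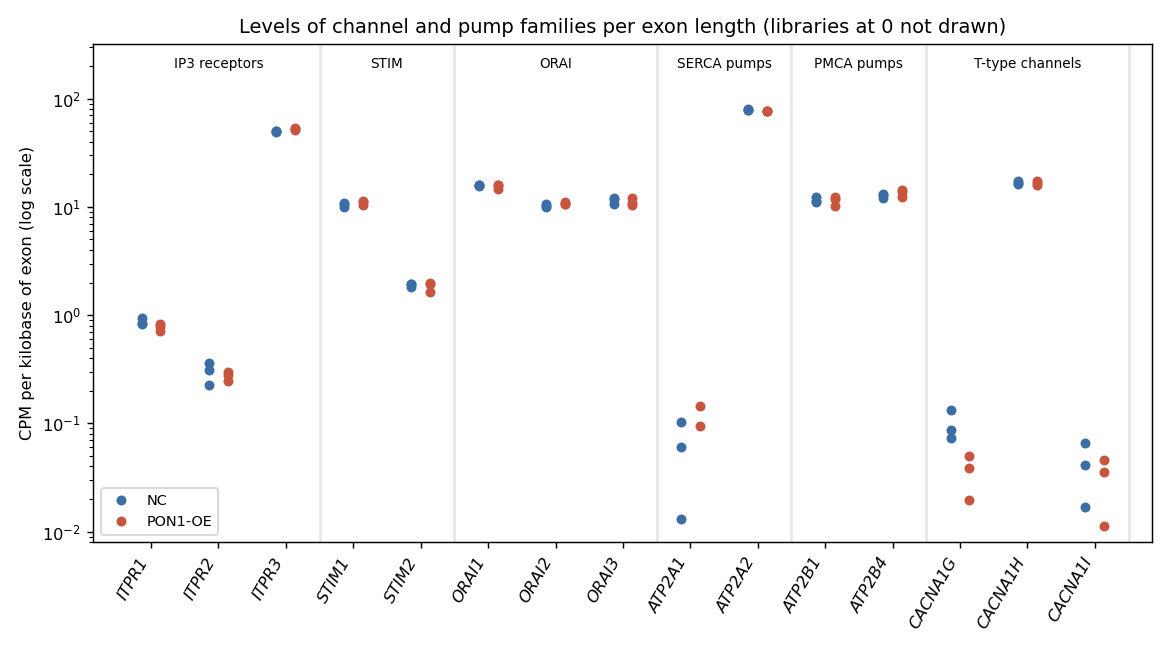
Level per kilobase of exon (log scale) of the 10 genes and of their family members with more than 10 counts in a library, with 1 dot per library for NC (blue) and PON1-OE (red) and libraries at 0 left out. *ITPR3*, *ATP2A2* and *CACNA1H* stand far above their relatives, while *ORAI1*, *ORAI2* and *ORAI3*, and *ATP2B1* and *ATP2B4*, lie close together.

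The balance between relatives was described by the log2 ratio of their levels per kilobase within each library, which does not depend on scaling between libraries. *STIM1* over *STIM2* was 2.47 ± 0.076 in NC and 2.57 ± 0.10 in PON1-OE, and *ORAI1* over *ORAI3* was 0.465 ± 0.0921 and 0.484 ± 0.168 (SD, n = 3 each). *ITPR3* over *ITPR2* was 7.40 ± 0.325 and 7.58 ± 0.171, and *ATP2A2* over *ATP2B1* was 2.78 ± 0.0973 and 2.76 ± 0.135. In these 4 ratios the libraries of the groups overlapped. *CACNA1H* over *CACNA1G* was 7.46 ± 0.427 in NC and 8.94 ± 0.632 in PON1-OE, without overlap. As *CACNA1H* differed little (log2FC −0.014), this ratio restates the lower *CACNA1G* level, from 3 to 22 counts in a library. It is no separate result. Of the ORAI level per kilobase, *ORAI2*, the remaining pore subunit, held 27.2% ± 1.07 in NC and 28.8% ± 0.821 in PON1-OE.

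The other genes of calcium entry, release, pumping and sensing were taken from a hand-written list of 124 genes that includes the 10. Of these, 80 passed the filter and were tested and 33 had at most 3 counts in every library, 14 of them none at all. Among the voltage-gated pore subunits 3 of 10 were tested, *CACNA1G*, *CACNA1H* and the L-type *CACNA1D*. In the quasi-likelihood test of edgeR, with an unadjusted p under 0.05, 10 of the 80 were called, 4 higher and 6 lower in PON1-OE, which is 12.5% beside 11.1% of all genes. Without the 10 genes it was 8 of 70, or 11.4%. At an adjusted p under 0.05 the count was 0 of 80 in edgeR and in limma-voom. It was 0 also in DESeq2, run without the filter, where genes of low mean count, *MICU2* among them, got no adjusted p. At an unadjusted p under 0.05 DESeq2 called 9 of 110 and limma-voom 9 of 80. Over all genes DESeq2 called 5.51% and limma-voom 10.9%. The median log2FC of the 80 was −0.018.

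The groups of the list are small and were not tested as groups, and their counts stand beside 5.91% of all genes called higher and 5.17% called lower. Among the store-operated entry genes 0 of 10 tested were called at an unadjusted p under 0.05, and their median log2FC was −0.029. *ORAI2* had a log2FC of 0.083 (standard error 0.045, adjusted p = 0.521, edgeR's quasi-likelihood test), with the 3 PON1-OE libraries above the 3 NC libraries. Among ER release channels and their regulators 1 of 12 was called, *ITPR3*, and among 8 phospholipase C genes 0 were called. Among pumps, exchangers and pump subunits 2 of 7 were called, both lower (5.17% of all genes), the Golgi calcium pump *ATP2C1* (log2FC −0.086, standard error 0.040, adjusted p = 0.428) and *NPTN*, a partner of the plasma membrane pumps (−0.11, standard error 0.047, adjusted p = 0.381, both edgeR). Both groups of *ATP2C1* were narrow, at 212 ± 6.77 CPM for NC and 199.6 ± 3.66 CPM for PON1-OE (SD, n = 3 each).

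The mitochondrial calcium uptake genes had 3 of 10 called, all lower in PON1-OE (5.17% of all genes). *MICU2*, a gatekeeper of the mitochondrial uniporter, had 295, 303 and 263 counts across NC libraries, then 213, 230 and 219 across PON1-OE libraries, a log2FC of −0.28 (standard error 0.097, adjusted p = 0.253, edgeR). The outer membrane channel *VDAC1* had a log2FC of −0.12 (standard error 0.041, adjusted p = 0.229), and *MCU*, the uniporter pore, −0.11 (standard error 0.049, adjusted p = 0.395, both edgeR). The libraries of *MICU2* and *VDAC1* did not overlap between the groups and those of *MCU* did. None of the 3 passed the adjusted threshold, and without NC replicate 1 all 3 lost the unadjusted call, *MCU* also with any of NC replicate 3 and PON1-OE replicates 1 and 3 left out.

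Among calcineurin, NFAT and calmodulin genes, which read the calcium signal, 2 of 11 were called, both higher in PON1-OE (5.91% of all genes). *CALM2*, which encodes the calcium sensor calmodulin, had a log2FC of 0.087 (standard error 0.035, adjusted p = 0.349, edgeR), with the 3 PON1-OE libraries above the 3 NC libraries. *RCAN1*, an inhibitor of calcineurin that is itself induced by calcineurin and NFAT, had a log2FC of −0.077 (standard error 0.074, adjusted p = 0.773, edgeR), and its groups overlapped. Among other cation entry channels 1 of 10 was called, the ATP-gated channel *P2RX4*, at 118 ± 3.18 CPM for NC and 127 ± 4.43 CPM for PON1-OE (SD, n = 3 each, log2FC 0.11, standard error 0.045, adjusted p = 0.380, edgeR). The ER calcium-binding proteins (0 of 6) and the auxiliary subunits of voltage-gated channels (0 of 3) had no call. Each of the 8 genes called here besides the 10 lost its unadjusted call with at least 1 library left out.

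The genes whose log2 CPM followed *CACNA1G* most closely over the 6 libraries were *NRCAM* (Pearson's r = 0.995), *AGAP3* (r = 0.993) and *ZNRF1* (r = 0.990), given as a description of libraries that share the same group difference. Their own log2FC were −0.13, −0.060 and −0.19, much smaller than that of *CACNA1G*. Of all genes tested, 152 (1.27%) had an r of at least 0.9 with *CACNA1G*. For these correlations a prior count of 2 was added before taking log2 CPM. With 3 to 22 counts of *CACNA1G* in a library, counting error is part of the pattern that was matched. Shared regulation was not tested.

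**Figure D5:**
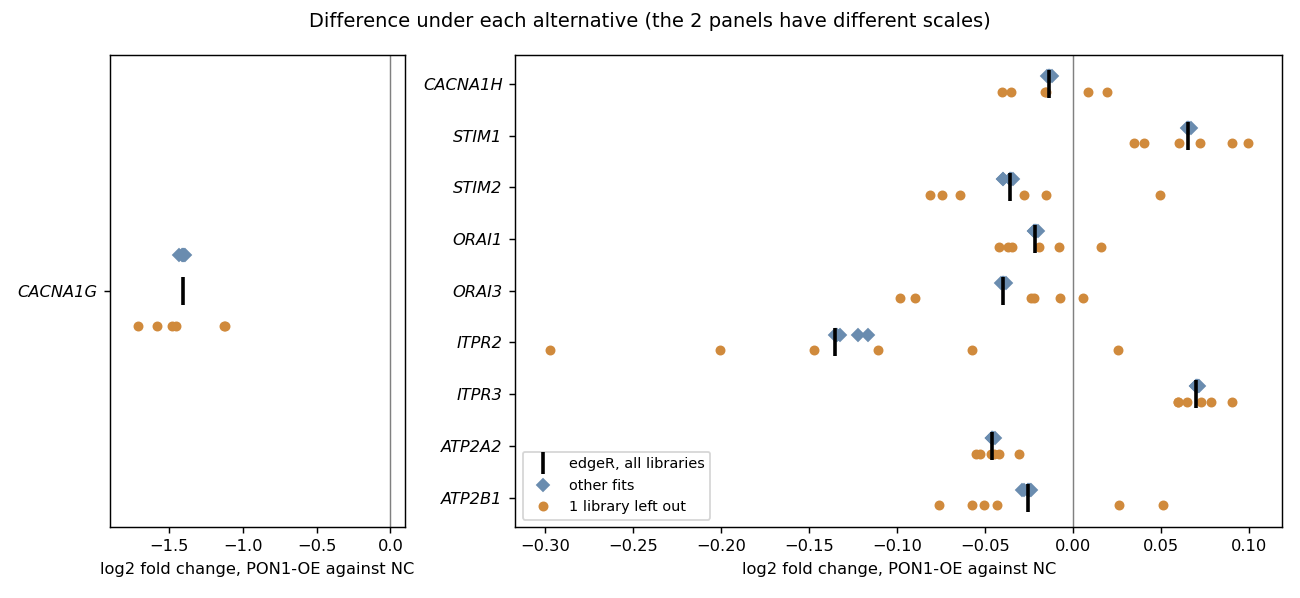
Log2 fold change of each of the 10 genes with edgeR on all libraries (black bars), under other fits (blue diamonds) and with 1 library left out (orange dots), with *CACNA1G* on a scale of its own. *CACNA1G* stays between −1.71 and −1.12, *ITPR3* and *STIM1* stay above 0 and *ATP2A2* stays below 0, while the other 6 genes cross 0 when some libraries are left out. The fits share their libraries and are not separate tests.

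Left-out libraries moved *CACNA1G* between −1.71 and −1.12 (log2FC), and it was lower in PON1-OE in each of the 12 alternatives that tested it. These alternatives refit the same libraries, in which each PON1-OE library lay below each NC library for *CACNA1G*. The gene was also chosen with its fold change in view. Its shared direction was therefore fixed beforehand, and only the size of the fold change is described. *ITPR3* stayed between 0.060 and 0.090, *STIM1* between 0.034 and 0.099 and *ATP2A2* between −0.055 and −0.031 over 13 alternatives. The groups of *ITPR3* and *ATP2A2* did not overlap either, so their constant sign is no separate result. The sign changed in 1 or 2 of the 13 alternatives, all with a library left out, for *CACNA1H*, *STIM2*, *ORAI1*, *ORAI3*, *ITPR2* and *ATP2B1*. The unadjusted call of *ITPR3*, near the threshold, was made in 6 of 13 alternatives.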

How the data were processed

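RNA-seq of HCCLM3 cells comprised 3 PON1-OE and 3 NC libraries (NEBNext Ultra kit, Illumina NovaSeq6000). The authors deposited a table of estimated counts per gene, not normalized, of which 10.5% of the values were not whole. The submitters' processing notes name Bowtie2 2.2.8, HISAT2, StringTie 1.3.1 and DESeq2, without roles. The build, the annotation and the use of strand in counting are not given in the sources used here. Coordinates and exon lengths were taken from GENCODE v29 (GRCh38), which holds 20126 of the 20381 identifiers.

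Estimated counts were rounded and tested in R 4.3.3 with edgeR 4.0.16 (filterByExpr, TMM, quasi-likelihood test, no covariates), with Benjamini-Hochberg adjustment over the 11958 genes tested. DESeq2 1.42.0 and limma-voom (limma 3.58.1) were alternatives. The design had assumed counts, and rounding was the step added. A floor of 3 counts was 0.166 to 0.192 CPM and covers counting error only. On simulated counts edgeR recovered 73.9% of 69 genes changed by 0.4, 90.9% of 66 changed by 0.8 and 100% of 65 changed by 1.2 on the log2 scale, with 13 false among 189 calls over 11958 genes. Calls were made at an adjusted p under 0.05, and the changed genes were drawn at random from all genes tested. The shares were not taken apart by level, so they say nothing on genes with few counts such as *CACNA1G*. Libraries of a group differed by more than sampling noise (chi-square per degree of freedom 2.11 to 4.11).

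The genes, the wider list and the tests were chosen with earlier results of these data known. Of the wider list, genes were named at an adjusted p under 0.05 or, up to 8 in each direction, at an unadjusted p under 0.05, and *RCAN1*, *ORAI2* and the 3 genes nearest to *CACNA1G* were always named. *CACNA1D*, *ITPR1*, *CACNA1I* and *ATP2B4* were named beside this rule as relatives. Some values that the rule would name are not reported here.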

Additional observations from a re-analysis of the deposited data

How the results depend on the processing

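The count of the 10 genes called at an unadjusted p under 0.05, 2 in the fit reported, was 1 without the filter on low counts (*CACNA1G*), 1 with at least 10 counts in every library (*ITPR3*, as *CACNA1G* is then not tested), 1 with a fold of 1.5 required in addition and 0 with adjusted p. It ranged from 0 to 2 with single libraries left out and was 0 without NC replicate 3, without which the wider list also had 1 gene called higher and 2 lower. The wider list, 4 higher and 6 lower as reported, had 0 higher and 1 lower with the fold threshold and 0 and 0 with adjusted p, and ranged from 1 to 6 higher and from 1 to 8 lower with single libraries left out, with 1 and 1 without NC replicate 1. Its median log2FC, −0.018 as reported, was −0.025 without the filter, −0.024 in DESeq2 and between −0.020 and 0.0036 with single libraries left out. Over all genes, 81 at an adjusted p under 0.05 became 177 without the filter, 123 in DESeq2 and 11 to 103 with single libraries left out, and 1325 at an unadjusted p under 0.05 became 857 in DESeq2. The cause of these shifts was not tested. Unrounded counts and RLE size factors left the counts of called genes of the 10 and of the wider list as reported. With the longest transcript as length, the log2 ratio of *ATP2A2* over *ITPR3* was 1.88 in place of 0.61, the log2 ratio of *ORAI1* over *ATP2B1* was 0.099 (adjusted exact p = 0.0938), that of *ATP2B1* over *ORAI3* 0.20 and that of *ORAI3* over *STIM1* −0.38. The log2FC of *RCAN1* ranged from −0.15 to 0.0031 with single libraries left out, the latter without NC replicate 3.

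Libraries with the same replicate number did not deviate together (correlations of −0.0231 to 0.0205 over genes), and no library correlated best with its own number. The counts thus showed no pairing by number. Correlations this small cannot show whether the numbers paired cultures or batches. With the replicate number as a block, 1 of the 10 genes was called at an unadjusted p under 0.05 (*CACNA1G*), 2 genes of the wider list were called higher and 40 of all genes had an adjusted p under 0.05.

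Depth limits *CACNA1G* and *ITPR2* most, and levels between genes rest on annotated exon lengths.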
